A study of Mus musculus with 20 samples.

Results

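Osteoblastic cells that carry both receptors for platelet-derived growth factor (PDGF) were set against cells named for carrying neither, across 9129 genes. The double-positive cells (AB) and the double-negative cells (DN) were taken by their array codes, with 4 arrays each, 8 of the 20 arrays of the series. A gene was represented by 1 probe set of the authors' filtered array table, that with the highest mean log2 signal over the 20 arrays, which reduced 12440 probe sets to these 9129 genes. The series compared 5 populations sorted from digested bone of male C57BL6 mice aged 8 weeks, none of which were treated or cultured. Every gate required CD51, integrin alpha-v, and the absence of CD31, an adhesion protein of endothelium, and of blood lineage markers. AB and DN were both negative for Sca-1. AB was gated as positive for PDGFRa and for PDGFRb. DN was gated as negative for PDGFRa, but its titles write the PDGFRb gate unclearly, so its double-negative state rests on its code. The other populations, described as context, were A (PDGFRa alone, Sca-1 negative), B (PDGFRb alone, Sca-1 negative) and SL (low Sca-1). Their arrays also entered the choice of probe set and the estimate of spread behind every SE, interval and p-value. The labels do not say whether the 4 arrays of a group came from separate animals or sorts, and p-values therefore measure the spread between these arrays, which may be technical.

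The PDGF receptors are receptor tyrosine kinases of mesenchymal cells, and in bone both mark perivascular stromal cells of the marrow. Such reticular cells surround the sinusoids and secrete the chemokine CXCL12 and the KIT ligand, on which blood stem cells depend, and they share transcripts with the fat lineage. CD51 is also carried by osteoblasts, which deposit and mineralize type I collagen, and by chondrocytes of the growth plate, which build a cartilage of collagens II, IX, X and XI. Digested bone can further release periosteal and tendon fibroblasts, Schwann cells of nerves, muscle and vessel wall. In a sorted bulk sample, fewer cells of a type and less RNA per cell cannot be told apart.

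The transcripts of the sorted proteins followed both receptor gates. Pdgfra had a log2 signal of 9.77, 9.80, 9.78 and 9.54 in AB, against 7.51, 7.75, 8.15 and 8.05 in DN. Pdgfrb read 10.68, 10.69, 10.66 and 10.46 in AB, against 8.87, 8.84, 8.60 and 8.82 in DN. For both receptors every AB array lay above every DN array, and DN retained a signal for each. Pdgfra was higher in AB by 1.86 ± 0.16 (log2 difference ± SE, limma, adjusted p = 1.39e-08), a 3.62-fold difference, and Pdgfrb by 1.84 ± 0.12 (adjusted p = 2.41e-10), 3.58-fold. Itgav, which encodes CD51, differed by -0.17 (95% interval -0.42 to 0.08), with overlapping groups. Another Itgav probe set, of lower signal, differed by -0.51 (limma over all filtered probe sets, adjusted p = 0.00676), and a further probe set by 0.13. Pecam1, which encodes CD31, differed by 0.29 (95% interval -0.39 to 0.96). Ptprc, which encodes the pan-leukocyte protein CD45, differed by 0.49 (95% interval -0.69 to 1.67).

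The arrays of a group were not alike in every respect. Ly6a, which encodes Sca-1, read 7.10, 7.24, 8.72 and 10.05 in AB, against 7.27, 7.03, 7.55 and 8.28 in DN, so AB arrays 3 and 4 lay above every DN array, in a sort that took Sca-1-negative cells for both, while AB arrays 1 and 2 lay within the DN range. Its mean difference of 0.75 (95% interval -0.75 to 2.25) did not pass, and was -0.36 without those 2 arrays. Uchl5, a deubiquitinase of the proteasome and the gene with the widest spread within AB, read 5.13, 3.75, 6.89 and 10.01 in AB, against 3.89, 4.05, 3.82 and 4.47 in DN. The same AB arrays 3 and 4 held the highest AB values of Uchl5 and of the cartilage gene Col10a1 described below. AB array 4 and DN array 4 had the highest Ptprc of their groups, at 8.79 and 8.48. The neutrophil lineage list, of which 16 of 20 genes were measured, had a mean log2 signal per array of 9.04 to 10.37 in AB and 8.53 to 9.76 in DN, with array 4 highest in each group. Its part in the results was not tested. The count over all genes is therefore also given without AB arrays 3 and 4, and without array 4 of both groups. The latter setting was chosen after the data were seen. Some list counts are also given under 1 or both settings, and most others with all arrays only.

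**Figure D1:**
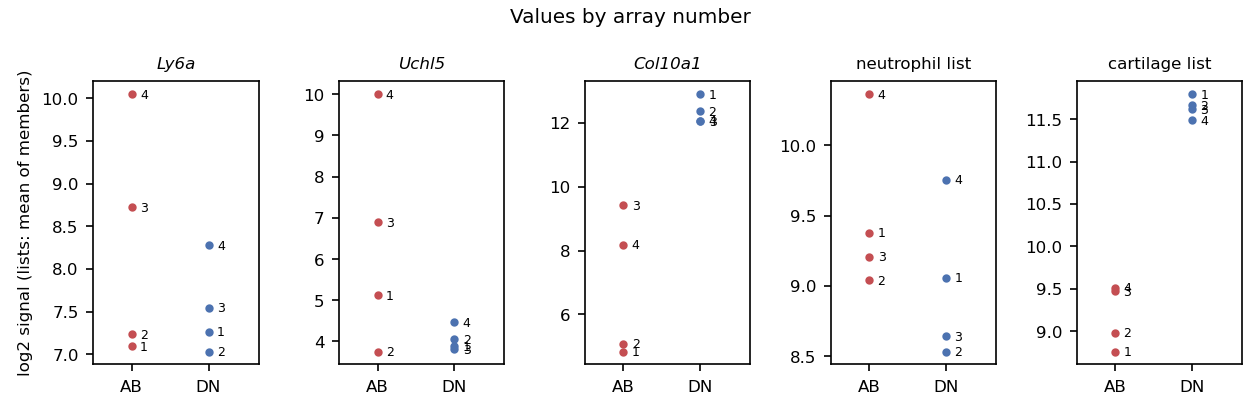
Log2 signal of Ly6a, Uchl5 and Col10a1 and mean log2 signal of the measured members of the neutrophil and growth plate chondrocyte lists, for each AB array (red, left) and each DN array (blue, right), with the array number beside the point. AB arrays 3 and 4 have the highest AB values of Ly6a, Uchl5 and Col10a1, and array 4 has the highest neutrophil mean of its group in both, at 10.37 in AB and 9.76 in DN.

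Of the 9129 genes, 4210 differed between AB and DN at an adjusted p under 0.05, which is 46.1% of all genes tested. 2258 genes, 24.7%, were higher in AB and 1952, 21.4%, were lower. Differences of at least 2-fold were found for 602 genes that rose and 474 that fell, and of at least 4-fold for 125 and 136. The median difference over all genes was log2 0.04. The 4 AB arrays lay entirely above or below the 4 DN arrays for 3581 genes, 39.2%, of which 3404 also passed the test. Without AB arrays 3 and 4 the count was 3460 (1837 higher, 1623 lower), 3339 of them among the 4210, and without array 4 of both groups it was 3640 (1974 higher, 1666 lower), 3500 of them among the 4210. Every gene list below has to be read against these shares: with 46.1% of all genes called, a list with about that share called stands at the background. The lists were chosen with earlier results of these data known, so ranks between lists describe these lists only. The rule of the authors' filter is not stated in the sources used here. A gene that is not in the filtered table is therefore not read as low, and Gapdh, Pgk1 and Rplp0 are among those missing. No detection call comes with the values, so a difference that rests on signals near the bottom of the scale is a size on this scale only.

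**Figure D2:**
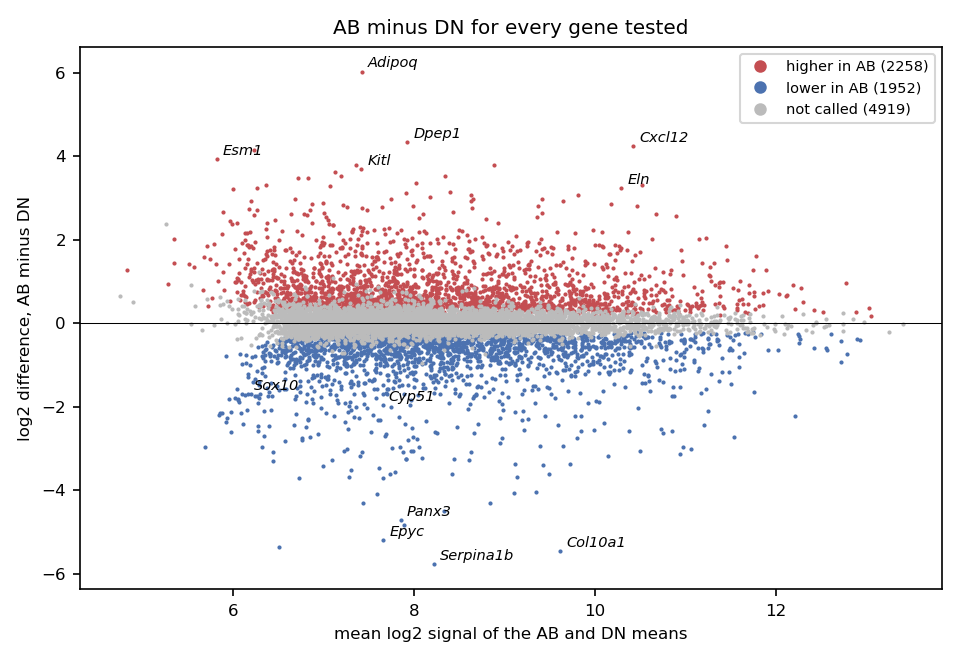
Log2 difference AB minus DN (vertical) against the mean log2 signal of both groups (horizontal) for the 9129 genes, with genes higher in AB in red (2258), lower in AB in blue (1952) and not called in grey (4919). Labelled genes are among those described in the text. Adipoq and Serpina1b lie at the extremes, at 6.03 and -5.77.

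Genes of marrow stromal reticular cells were higher in AB, with the highest share of members called upward among all lists. Of 27 genes of that list 26 were measured, and 23 rose, 0 fell and 3 did not pass, with a median difference of log2 1.86. The 23 include Pdgfra and Pdgfrb, which the gates selected, so the rise of these members was set by the sort. The mean signal of the measured genes was 9.90 to 10.38 in AB and 7.82 to 8.01 in DN. Adipoq (chr16:23146536-23158028), which encodes the hormone adiponectin of fat cells and is transcribed by fat-primed marrow stroma, read 10.51, 10.99, 10.24 and 9.99 in AB, against 4.54, 4.50, 4.30 and 4.30 in DN. All 4 DN values were near the bottom of the scale and all AB values in its upper part. Its difference of 6.03 ± 0.29 (adjusted p = 9.53e-12), 65.2-fold, was the largest rise of all genes tested. Cxcl12 (chr6:117168535-117181367), the chemokine that retains blood stem cells, read 12.58, 12.73, 12.52 and 12.33 in AB, against 8.36, 8.74, 7.82 and 8.24 in DN. AB reached some of the highest signals on the arrays, while DN kept an intermediate level. The difference was 4.25 ± 0.19 (adjusted p = 3.93e-12), 19-fold.

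Kitl (chr10:100015630-100100413), the ligand of the stem cell receptor KIT, read 9.32, 9.76, 9.20 and 8.76 in AB, against 5.78, 5.73, 5.39 and 5.36 in DN. A wide gap separated the groups, and the difference was 3.70 ± 0.16 (adjusted p = 3.58e-12). Lepr, the leptin receptor by which these cells are commonly traced, read 10.01, 10.72, 10.01 and 9.70 in AB, against 6.49, 5.71, 7.17 and 6.92 in DN. DN varied more than AB, without overlap, and the difference was 3.54 ± 0.32 (adjusted p = 2.51e-08). Vcam1, an adhesion molecule for blood cells, was higher by 3.37 ± 0.25 (adjusted p = 2.03e-09). Lpl, the lipase that releases fatty acids from lipoproteins and a member of both the stromal and the adipose list, rose by 3.07 ± 0.17 (adjusted p = 4.68e-11). Ebf3, a transcription factor that maintains these stromal cells in mice, read 9.24, 9.88, 9.39 and 8.73 in AB, against 6.74, 6.62, 7.03 and 6.77 in DN, a difference of 2.52 ± 0.17 (adjusted p = 6.36e-10). Foxc1, another factor required for the same cells in mice, did not pass, at -0.30 (95% interval -0.60 to 0.01), and its groups overlapped. Without AB arrays 3 and 4 the list again had 23 genes higher and 0 lower.

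Secreted factors of the blood stem cell niche were mostly higher. Of 17 measured of 21, 12 rose, 2 fell and 3 did not pass, with a median of log2 1.86. Beside Cxcl12, Kitl and Vcam1, which the stromal list shares, the rises included Bmp4 (3.28 ± 0.31), Igf1 (2.82 ± 0.14) and Angpt1 (2.46 ± 0.24), which encode a bone morphogenetic protein, insulin-like growth factor 1 and angiopoietin 1. The members that fell were Fgf2 and Lif. Of the adipose lineage list 11 of 17 were measured, of which 7 rose, 0 fell and 4 did not pass (median log2 0.94). The 7 include Adipoq, Lpl, Cebpa and Apoe, which the stromal list also counts. Ebf2 (2.11 ± 0.21), Cebpa (1.52 ± 0.15), Apoe (1.15 ± 0.20) and Zfp423 (0.94 ± 0.18) rose, of which Apoe is a lipid carrier and the others are transcription factors of fat precursors. Genes of mature fat cells on this list, among them Plin1, Cidec and Fabp4, were not in the filtered table.

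Other genes also had large rises. Dpep1, a membrane dipeptidase, read 10.29, 10.44, 9.82 and 9.83 in AB, against 5.80, 5.41, 5.95 and 5.88 in DN, and rose by 4.34 ± 0.28 (adjusted p = 2.94e-10). Serpina3g, an inhibitor of serine and cysteine proteases, rose by 4.16 ± 0.19 (adjusted p = 6.09e-12), and Esm1, a secreted proteoglycan of the stromal and angiogenic lists, by 3.93 ± 0.21 (adjusted p = 3.29e-11). In DN both read near the bottom of the scale on every array, from 3.69 to 4.32. Gdpd2, a glycerophosphodiester phosphodiesterase of the osteoblast membrane, rose by 3.80 ± 0.23 (adjusted p = 1.08e-10), and Slc47a1, an exporter of organic cations, by 3.62 ± 0.54 (adjusted p = 1.35e-05). Slc47a1 on DN array 4 read 6.98, apart from 5.04, 4.34 and 4.91 on DN arrays 1 to 3, and still lay below every AB array.

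**Figure D3:**
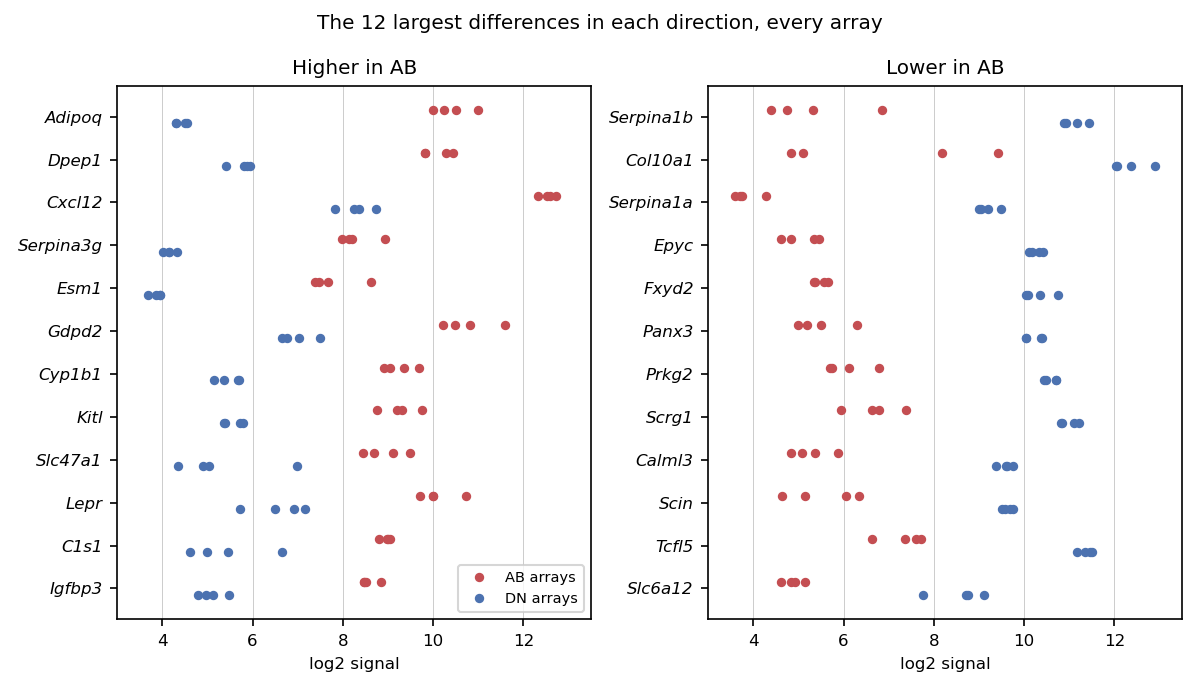
Log2 signal on every array for the 12 genes with the largest rise (left panel) and the 12 with the largest fall (right panel) among called genes whose groups do not overlap, without symbols of clones or predictions, ordered by size. Red points are AB arrays and blue points DN arrays, 4 each per gene. Adipoq is separated by 6.03 between the means, and Col10a1 and Serpina1b show the widest spread among AB arrays in the right panel.

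Fibroblast genes were mostly higher as well. Of the list of Sca-1-positive fibroblasts 17 of 21 genes were measured, and 14 rose, 1 fell and 2 did not pass (median log2 1.86). Pdgfra, which the gates selected, is among the 14, and the median is its own difference. Thy1 (2.98 ± 0.16), Mfap5 (2.78 ± 0.40) and Aldh1a2 (2.66 ± 0.49) rose, which encode a surface glycoprotein, a microfibril component and a retinaldehyde dehydrogenase. Cd34 read 8.10, 7.68, 8.63 and 9.40 in AB, against 5.70, 5.42, 7.06 and 6.64 in DN, and Clec3b, the plasminogen-binding tetranectin, 8.30, 6.82, 8.34 and 9.64 in AB, against 5.70, 5.38, 6.31 and 6.33 in DN. In both, AB array 4 was highest. Their differences of 2.25 ± 0.67 and 2.35 ± 0.61 (adjusted p = 0.00944 and 0.00357) did not pass without AB arrays 3 and 4 (1.69 and 1.63, adjusted p = 0.119 and 0.0769), and the list then had 11 genes higher. Of 18 genes of tendon and periosteum, all in the table, 13 rose, 1 fell and 4 did not pass (median log2 1.03). Angptl7, the growth factor pleiotrophin (Ptn), the tendon membrane protein tenomodulin (Tnmd) and keratocan (Kera) led with 2.20 ± 0.22, 2.03 ± 0.21, 1.87 ± 0.24 and 1.83 ± 0.29. The member that fell was Prg4, the lubricant of joint surfaces.

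Genes of elastic fibres were mostly higher in AB. Among 16 measured genes of elastic fibres and microfibrils (of 17), 12 rose, 0 fell and 4 did not pass, with a median of log2 1.41. Eln, which encodes tropoelastin, read 11.65, 11.87, 12.07 and 12.04 in AB, against 7.70, 8.47, 8.99 and 9.53 in DN. The DN arrays were spread over a wide range below every AB array, and the difference was 3.23 ± 0.25 (adjusted p = 2.13e-09). Mfap4 (2.62 ± 0.14), Ltbp4 (1.94 ± 0.17) and Fbln2 (1.92 ± 0.30) rose with it. Of 24 collagen chains outside the cartilage set, all of them measured, 14 rose, 3 fell and 7 did not pass (median log2 0.50). Col8a1 (2.49 ± 0.16), Col5a3 (1.80 ± 0.12), Col14a1 (1.66 ± 0.26) and Col4a1 (1.44 ± 0.10) were the largest rises, of a short-chain collagen, a chain of collagen V, a fibril-associated collagen and a basement membrane chain. Col27a1 (-1.66 ± 0.14) and Col24a1 (-1.47 ± 0.15), fibrillar collagens of cartilage and bone, fell. Col1a1, the main protein of bone, rose by 0.28 ± 0.08 (adjusted p = 0.00721), a small step between high levels of 13.02 ± 0.05 in AB and 12.74 ± 0.05 in DN (mean ± SD, n = 4), and its call was lost without AB arrays 3 and 4 (adjusted p = 0.0575) and without array 4 of both groups (adjusted p = 0.0554).

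The enzymes that modify and crosslink collagen went both ways. Of 22 measured (of 26), 7 rose, 13 fell and 2 did not pass (median log2 -0.41). The procollagen N-proteinase Adamts2, the lysyl oxidase Loxl1 and the prolyl 4-hydroxylase subunit P4ha3 rose by 2.24 ± 0.10, 2.17 ± 0.10 and 1.58 ± 0.26. The procollagen C-proteinase enhancer Pcolce2, the lysyl oxidase Loxl4 and the prolyl 3-hydroxylase P3h2 differed by -2.62 ± 0.45, -2.23 ± 0.13 and -1.86 ± 0.12, and fell. Among 13 small leucine-rich proteoglycans measured (of 14), 6 rose, 3 fell and 4 did not pass (median log2 -0.00), with Kera (1.83 ± 0.29), Aspn (1.71 ± 0.18) and Ogn (1.13 ± 0.08) higher and the cartilage members Epyc (-5.19 ± 0.37) and Chad (-1.44 ± 0.11) lower. Of 18 matrix proteases and inhibitors measured (of 21), 13 rose, 2 fell and 3 did not pass (median log2 0.92), led by stromelysins Mmp11 (2.23 ± 0.17) and Mmp3 (1.91 ± 0.23) and the disintegrin protease Adam12 (1.70 ± 0.25).

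Complement genes and detoxifying enzymes were also mostly higher. Of 13 complement genes measured (of 19), 10 rose, 0 fell and 3 did not pass, with a median of log2 1.87. They included the proteases of the classical pathway, C1s1 (3.53 ± 0.30), C2 (2.92 ± 0.19) and C1ra (2.76 ± 0.22), the terminal component C6 (2.64 ± 0.24), the inhibitor Serping1 (2.57 ± 0.12) and factor B, Cfb (1.93 ± 0.24). Of the insulin-like growth factor axis 12 of 15 genes were measured, and 7 rose, 2 fell and 3 did not pass (median log2 1.27). Igf1 itself read 11.95, 11.90, 11.88 and 11.76 in AB, against 8.85, 9.09, 9.19 and 9.10 in DN, with tight groups far apart (2.82 ± 0.14, adjusted p = 9.53e-12). Its binding proteins Igfbp3 (3.49 ± 0.15), Igfbp6 (2.02 ± 0.19) and Igfbp4 (2.01 ± 0.09) rose, as did the protease Pappa (2.26 ± 0.21) that cleaves IGFBP4, while Stc2, which inhibits that protease, was lower (-1.66 ± 0.12). Of 24 antioxidant and detoxifying enzymes measured (of 27), 16 rose, 2 fell and 6 did not pass (median log2 0.92), with the cytochrome P450 Cyp1b1 (3.78 ± 0.19), the flavin monooxygenases Fmo2 (2.97 ± 0.23) and Fmo1 (2.67 ± 0.15) and the glutathione transferase Mgst1 (2.79 ± 0.48) in front. Of 10 iron handling genes measured (of 12), 4 rose, 1 fell and 5 did not pass (median log2 0.42). The ferritin receptor Scara5 and transferrin (Trf) rose by 3.15 ± 0.52 and 2.97 ± 0.19, and the transferrin receptor Tfrc was lower (-1.53 ± 0.18).

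Angiogenic factors were mostly higher in AB. Of 15 angiogenic factors measured (of 17), 12 rose, 2 fell and 1 did not pass, and the median of log2 2.03 was the highest of all lists. Vegfc (3.21 ± 0.18), Angpt1 (2.46 ± 0.24), Slit3 (2.41 ± 0.20), Mdk (2.20 ± 0.14) and Angptl4 (2.19 ± 0.24) rose, of which Vegfc acts on lymphatic vessels and midkine (Mdk) is a heparin-binding growth factor. Vegfa, the main growth factor of blood vessels, was lower, at 9.25, 9.12, 9.30 and 8.92 in AB, against 10.20, 9.67, 9.66 and 9.96 in DN (-0.73 ± 0.17, adjusted p = 0.00189). The other member that fell was the thrombospondin Thbs1, while thrombospondin 2 (Thbs2), of the same list, rose by 1.77. As Thbs1 inhibits angiogenesis, the list does not hold stimulators alone, and its count gives no direction of angiogenesis. Of 27 axon guidance genes measured (of 31), 13 rose, 5 fell and 9 did not pass (median log2 0.38). The ligands Slit3 (2.41 ± 0.20), Slit2 (2.08 ± 0.19) and Efna5 (1.88 ± 0.20) and the semaphorin receptor Plxna2 (1.60 ± 0.12) rose, and the netrin receptor Unc5c (-3.23 ± 0.15) and Sema3d (-1.85 ± 0.23) fell. The count of falls was 3 without AB array 1 and 2 without DN array 3. Of 13 pericyte and smooth muscle genes measured (of 17), 7 rose, 2 fell and 4 did not pass (median log2 1.16). The potassium channel subunit Abcc9 (2.21 ± 0.33), the myosin light chain Myl9 (1.77 ± 0.18), the regulator Rgs5 (1.73 ± 0.38) and the receptor Notch3 (1.68 ± 0.30) rose, and the pericyte proteoglycan Cspg4 (-1.39 ± 0.09) fell.

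Cartilage genes showed the opposite pattern. Of 25 growth plate chondrocyte genes 22 were measured, and 0 rose, 21 fell and 1 did not pass, with a median difference of log2 -2.51, the lowest of all lists. The mean signal of the measured genes was 8.76 to 9.51 in AB and 11.49 to 11.80 in DN. Col10a1 (chr10:34389981-34397085), the collagen of hypertrophic cartilage, read 4.84, 5.09, 9.42 and 8.18 in AB, against 12.90, 12.36, 12.04 and 12.06 in DN. AB arrays 1 and 2 were near the bottom of the scale, AB arrays 3 and 4 well above them, and all were below DN. The difference was -5.46 ± 0.85 (adjusted p = 2.49e-05), and -7.38 without AB arrays 3 and 4. Epyc (chr10:97644068-97682454), a proteoglycan of epiphyseal cartilage, read 4.61, 4.83, 5.35 and 5.45 in AB, against 10.41, 10.18, 10.10 and 10.32 in DN, with no such split within AB (-5.19 ± 0.37, adjusted p = 8.32e-10). Ihh, the Hedgehog ligand of prehypertrophic chondrocytes, read 5.13, 5.47, 5.71 and 5.51 in AB, against 9.50, 9.03, 8.38 and 7.99 in DN and differed by -3.27 ± 0.31 (adjusted p = 4.4e-08).

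Sox9, the transcription factor that specifies chondrocytes, read 7.09, 7.86, 7.75 and 7.69 in AB, against 10.28, 10.37, 10.51 and 10.18 in DN, a difference of -2.74 ± 0.20 (adjusted p = 1.1e-09). Acan, which encodes aggrecan, fell by 1.64 ± 0.10 (adjusted p = 2.18e-10) yet kept a high level of 10.93 ± 0.16 in AB, against 12.57 ± 0.15 in DN. Prkg2, a kinase that promotes hypertrophy, Scrg1 and the matrix protein Matn3 differed by -4.50 ± 0.33, -4.31 ± 0.35 and -3.37 ± 0.34. The exception was Col2a1, the main collagen of cartilage, at 12.81, 13.05, 13.22 and 13.46 in AB, against 13.39, 13.33, 13.63 and 13.05 in DN. Its groups overlapped near the top of the scale and the difference was -0.22 (95% interval -0.51 to 0.07). All 22 measured genes were lower both without AB arrays 3 and 4 and without array 4 of both groups. Of 11 Hedgehog pathway genes measured (of 13), 2 rose, 6 fell and 3 did not pass (median log2 -0.25). With the ligand fell the pathway's receptor and target Ptch1 (-1.62 ± 0.11), the antagonist Hhip (-2.43 ± 0.24) and the transcription factor Gli2 (-0.46 ± 0.12). Gli1, a target gene, fell by 0.64 ± 0.20 (adjusted p = 0.0124) with overlapping groups. Its call was lost without AB array 1 (adjusted p = 0.0546) and its difference was -1.002 without AB arrays 3 and 4. The coreceptor Gas1 was higher (0.79 ± 0.15).

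Genes of mature osteoblasts had no common direction. Of 18 measured (of 20), 5 rose, 5 fell and 8 did not pass (median log2 0.15), a share near that of all genes. The mean signal of the measured genes was 9.83 to 10.04 in AB and 10.17 to 10.33 in DN, lower on every AB array. The osteoblast markers Bglap and Bglap2 were not in the filtered table. Bone matrix proteins were at high levels in both groups. Ibsp, bone sialoprotein, differed by -0.04 (95% interval -0.25 to 0.16), Sparc, osteonectin, by -0.02 (95% interval -0.15 to 0.12), and Alpl, the alkaline phosphatase of mineralization, by -0.28 (95% interval -0.59 to 0.02), each with overlapping groups. Slc36a2 (1.10 ± 0.20) and Mmp13 (0.91 ± 0.10) rose, which encode an amino acid transporter and collagenase 3. Panx3, a channel protein of hypertrophic chondrocytes and osteoblasts, read 4.98, 5.19, 6.29 and 5.50 in AB, against 10.38, 10.39, 10.05 and 10.04 in DN, a difference of -4.72 ± 0.31 (adjusted p = 2.94e-10). Without array 4 of both groups 3 genes were higher and 5 lower.

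Of 9 osteocyte genes measured (of 15), 6 rose, 2 fell and 1 did not pass (median log2 0.77). The potassium channel Kcnk2 (1.99 ± 0.16), podoplanin, Pdpn (1.54 ± 0.18), and the matrix protein Dmp1 (0.98 ± 0.24) rose, and Tnfrsf11b, which encodes the osteoclast inhibitor osteoprotegerin, was lower at 7.82, 7.79, 8.06 and 8.09 in AB, against 10.22, 9.77, 10.01 and 10.09 in DN (-2.08 ± 0.11, adjusted p = 2.93e-11). Sost, Mepe, Phex and Fgf23, which define mature osteocytes, were not in the filtered table. Of 14 mineralization and phosphate genes measured (of 17), 3 rose, 7 fell and 4 did not pass (median log2 -0.40). The sphingomyelinase Smpd3, the phosphate transporter Slc20a1 and the phosphatase Phospho1 differed by -2.93 ± 0.23, -2.03 ± 0.23 and -1.56 ± 0.21, and the pyrophosphate-forming Enpp1 by -0.89 ± 0.11. Among 19 measured transcription factors of osteoblast commitment (of 23), 11 rose, 5 fell and 3 did not pass (median log2 0.59). Runx2, required for the lineage, read 10.91, 11.02, 11.28 and 10.65 in AB, against 10.34, 10.74, 10.31 and 10.19 in DN and rose by 0.57 ± 0.17 (adjusted p = 0.00948), although AB array 4 lay below DN array 2. Its other probe sets differed by 0.15, 0.42 and 0.44 (limma over all filtered probe sets, adjusted p = 0.258, 0.0951 and 0.0421). Sp7, which acts after Runx2, differed by 0.07 (95% interval -0.38 to 0.53). Osr1 (1.42 ± 0.27), Dlx6 (1.21 ± 0.24) and Twist2 (1.19 ± 0.15) rose and Runx3 (-1.37 ± 0.20) fell.

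Nerve and muscle transcripts were lower in AB. Of 13 Schwann cell genes measured (of 16), 0 rose, 13 fell and 0 did not pass (median log2 -2.26). Their mean signal was 5.86 to 6.45 in AB and 8.07 to 8.56 in DN. Sox10, the transcription factor that specifies these cells, read 5.27, 5.18, 5.37 and 5.44 in AB, against 7.01, 6.92, 7.15 and 6.94 in DN. The groups were narrow and did not overlap, and the difference was -1.69 ± 0.13 (adjusted p = 3.61e-09). Myelin basic protein (Mbp), the potassium channel Kcna1 and the neuregulin receptor Erbb3 differed by -3.00 ± 0.35, -3.70 ± 0.38 and -2.97 ± 0.21. Of 14 skeletal muscle genes 2 were measured, and both were lower, the troponins Tnni2 (-2.99 ± 0.18) and Tnnt3 (-1.63 ± 0.19). The median of these was log2 -2.31. Contractile genes that define muscle fibres, such as Acta1, Ckm and Myh4, were not in the filtered table.

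The remaining genes of largest fall have varied roles. Serpina1b and Serpina1a, copies of the elastase inhibitor alpha-1 antitrypsin, differed by -5.77 ± 0.67 and -5.35 ± 0.29 (adjusted p = 5.75e-07 and 3.64e-11). The copies are nearly identical in mice, so their signals cannot be assigned to 1 of them with certainty. Fxyd2, a regulator of the sodium pump, read 5.36, 5.34, 5.64 and 5.57 in AB, against 10.76, 10.36, 10.08 and 10.04 in DN and fell by 4.83 ± 0.32 (adjusted p = 3.84e-10). The calmodulin-like Calml3, the actin-severing scinderin (Scin), the transcription factor Tcfl5 and the betaine transporter Slc6a12 differed by -4.30 ± 0.32, -4.08 ± 0.34, -4.04 ± 0.30 and -3.70 ± 0.30.

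Genes of lipid synthesis were lower in AB. Of 21 cholesterol and fatty acid synthesis genes 18 were measured, and 0 rose, 18 fell and 0 did not pass, with a median of log2 -1.08. Without AB arrays 3 and 4, 17 of them passed. Cyp51, lanosterol demethylase, read 6.48, 6.75, 6.78 and 6.67 in AB, against 8.77, 8.34, 8.58 and 8.81 in DN. The groups were compact and separate, and the difference was -1.96 ± 0.15 (adjusted p = 1.94e-09). Squalene epoxidase (Sqle), lanosterol synthase (Lss), HMG-CoA synthase (Hmgcs1) and the fatty acid elongase Elovl6 differed by -1.90 ± 0.14, -1.70 ± 0.16, -1.60 ± 0.10 and -1.84 ± 0.16.

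Genes of this pathway are known targets of the SREBP transcription factors, which act beside NF-Y at CCAAT boxes, so the 250 bases upstream of the start were searched for the letters CCAAT on both strands. A promoter was in the RefSeq table (GRCm38.p6) for 11 of the 18 measured genes, and 8 of the 11 held a CCAAT in at least 1 entry, against 37.5% of 27025 genes with a promoter there. The second motif searched, CACCCCAC, was in 1 of the 11, Hmgcs1, against 2.98% of genes. A match describes these letters only. The windows of Cyp51, Lss and Hmgcs1, the genes of largest fall with a single entry and a match, are shown with that of Elovl6, which has no match for either motif, in lower case with the matches in capitals, 5′ to 3′ on the gene's strand. Cyp51 is at chr5:4104698-4104947 on the minus strand, Lss at chr10:76531355-76531604 on the plus strand, Hmgcs1 at chr13:119690101-119690350 on the plus strand and Elovl6 at chr3:129532136-129532385 on the plus strand. ATTGG is CCAAT on the other strand.
Cyp51: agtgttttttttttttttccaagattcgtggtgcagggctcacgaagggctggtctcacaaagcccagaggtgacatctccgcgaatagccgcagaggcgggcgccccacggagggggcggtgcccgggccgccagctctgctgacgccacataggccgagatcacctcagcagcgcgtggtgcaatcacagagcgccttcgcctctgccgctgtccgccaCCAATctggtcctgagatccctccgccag
Lss: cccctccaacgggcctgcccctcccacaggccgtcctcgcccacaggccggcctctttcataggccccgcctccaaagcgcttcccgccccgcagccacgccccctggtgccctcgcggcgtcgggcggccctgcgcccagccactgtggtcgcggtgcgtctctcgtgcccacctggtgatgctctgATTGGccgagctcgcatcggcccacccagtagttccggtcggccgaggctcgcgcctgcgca
Hmgcs1: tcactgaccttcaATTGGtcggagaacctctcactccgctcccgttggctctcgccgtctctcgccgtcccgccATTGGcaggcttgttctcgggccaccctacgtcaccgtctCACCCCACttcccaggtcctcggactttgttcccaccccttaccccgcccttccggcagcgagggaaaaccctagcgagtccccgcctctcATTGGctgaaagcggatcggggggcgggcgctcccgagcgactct
Elovl6: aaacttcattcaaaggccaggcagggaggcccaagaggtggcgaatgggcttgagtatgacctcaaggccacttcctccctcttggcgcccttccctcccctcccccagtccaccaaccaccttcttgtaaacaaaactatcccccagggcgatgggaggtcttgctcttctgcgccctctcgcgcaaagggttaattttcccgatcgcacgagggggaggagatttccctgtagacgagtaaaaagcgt

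Glycolysis and cell cycle genes were also mostly lower. Of 14 glycolytic genes measured (of 20), 1 rose, 9 fell and 4 did not pass (median log2 -0.55). Hexokinase 2 (Hk2), the glucose transporter Slc2a1 and the kinase Pdk1 that restrains pyruvate oxidation differed by -2.09 ± 0.21, -1.90 ± 0.18 and -1.35 ± 0.14. The gene that rose was the transporter Slc2a3. Of 20 cell cycle genes measured (of 26), 0 rose, 12 fell and 8 did not pass (median log2 -0.54). Topoisomerase Top2a, the kinase Cdk1 and cyclin D1 (Ccnd1) differed by -1.24 ± 0.29, -1.06 ± 0.26 and -1.02 ± 0.12, the first pair with overlapping groups. Immediate early and heat shock genes, which tissue digestion is known to induce, formed a list of 21 of which 21 were measured, and 0 rose, 18 fell and 3 did not pass (median log2 -0.72). Egr2, Atf3 and Ier2, the members of largest fall, differed by -1.70 ± 0.18, -1.43 ± 0.25 and -1.22 ± 0.17. Fos read 12.03, 12.28, 12.44 and 12.23 in AB, against 12.81, 12.73, 12.91 and 12.93 in DN, high in both groups and without overlap (-0.60 ± 0.10, adjusted p = 7.5e-05).

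Housekeeping groups had small median differences. Of 27 genes of the endoplasmic reticulum secretory pathway measured (of 28), 1 rose, 12 fell and 14 did not pass (median log2 -0.22), including the transcription factor Creb3l2 (-0.98 ± 0.10) and the chaperone partner Dnajb9 (-0.69 ± 0.11). Ssr4, a subunit of the translocon, differed by -0.92 ± 0.15 on its highest probe set and by -0.42 when all its probe sets were averaged. The member that rose, Creb3l1 (0.45 ± 0.16), did not pass under 5 of the other settings (adjusted p = 0.0726 to 0.131). Of 22 oxidative phosphorylation genes measured (of 24), 3 rose, 0 fell and 19 did not pass (median log2 0.16), and of 10 ribosomal protein genes (of 25), 0 rose, 1 fell and 9 did not pass (median log2 -0.15). For both lists the share called was below that of all genes. The oxidative count was 7 without AB array 3 and 6 without DN array 1. Cox5b and Ndufv1 rose by 0.32 ± 0.09 and 0.29 ± 0.09, and their calls were lost under 1 and 2 of the other settings (adjusted p = 0.0807 for Cox5b, 0.0596 and 0.0691 for Ndufv1). The ribosomal gene that fell was Rpl22, by 0.61 ± 0.11.

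**Figure D4:**
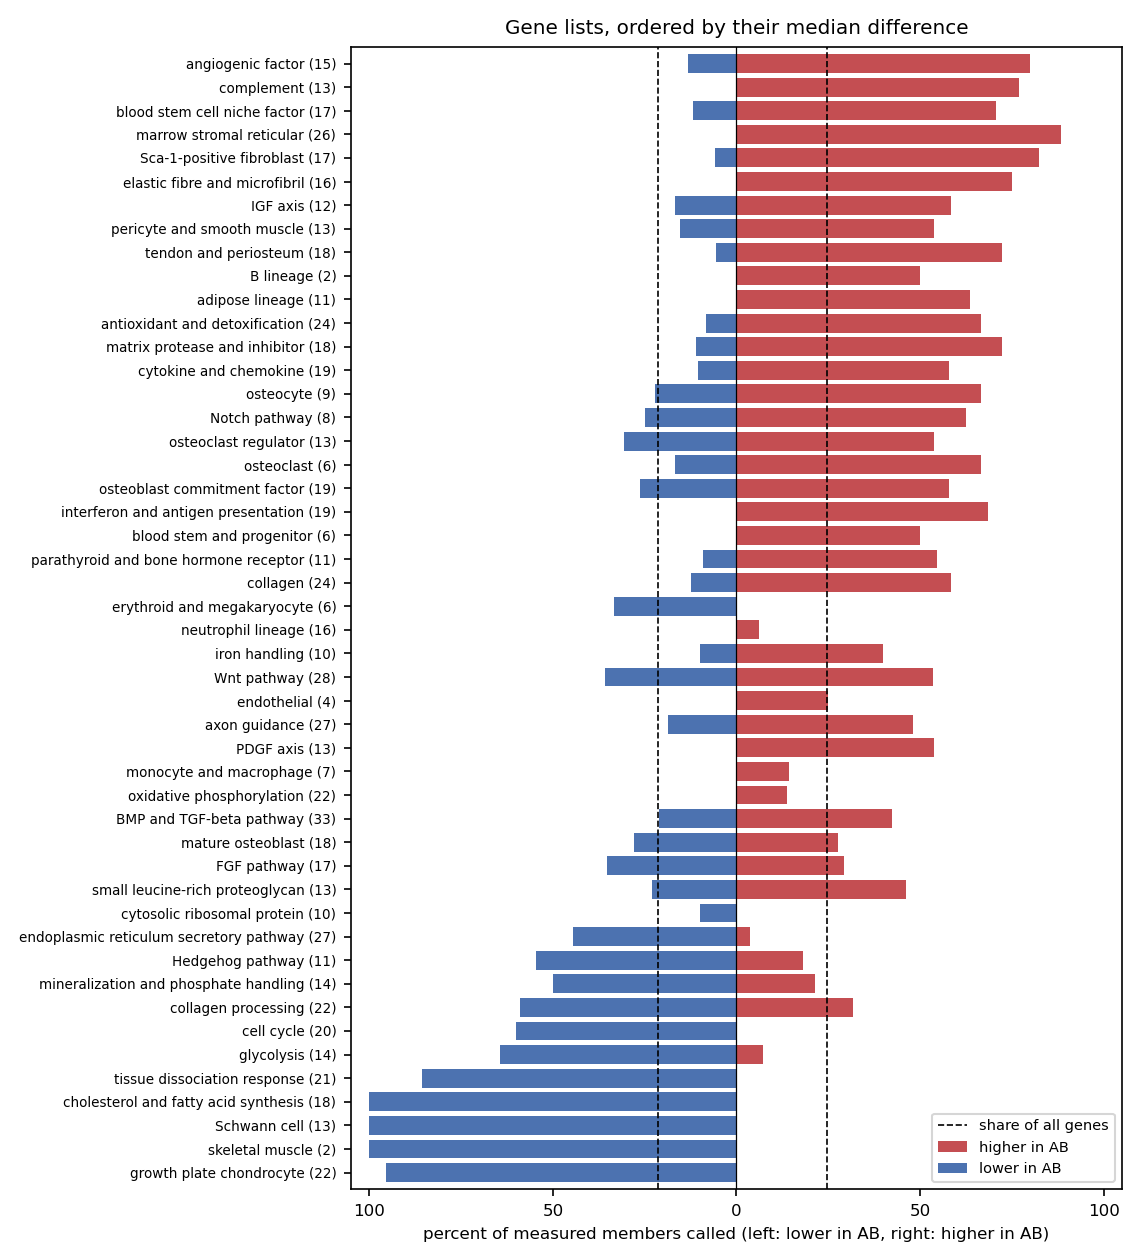
Percent of the measured members of each list that were called higher in AB (red, to the right) or lower in AB (blue, to the left), with the number measured in brackets and lists ordered by their median difference. Dashed lines mark the shares of all genes, 24.7% higher and 21.4% lower. The stromal, Sca-1-positive fibroblast, angiogenic and complement lists reach furthest to the right, and the cholesterol, Schwann cell, muscle and growth plate lists reach furthest to the left.

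The signalling pathways differed in how their members divided between rises and falls. Of 13 PDGF axis genes measured (of 14), 7 rose, 0 fell and 6 did not pass (median log2 0.36). Beside both receptors, which the gates selected, the ligand Pdgfd rose by 2.22 ± 0.21 (adjusted p = 4.4e-08) and the adaptors Pik3r1 (0.99 ± 0.13) and Shc1 (0.91 ± 0.16) rose too. Of 28 Wnt pathway genes measured (of 40), 15 rose, 10 fell and 3 did not pass (median log2 0.41). The secreted antagonist Sfrp2 read 10.32, 10.18, 10.08 and 9.99 in AB, against 6.98, 6.64, 7.47 and 7.58 in DN, well apart (2.98 ± 0.22, adjusted p = 1.63e-09), and Sfrp4 (2.63 ± 0.22) and Wnt16 (2.40 ± 0.20) rose with it. The R-spondin receptor Lgr6 read 5.62, 5.97, 6.66 and 6.91 in AB, against 9.81, 9.42, 9.57 and 9.32 in DN, a difference of -3.24 ± 0.25 (adjusted p = 2.3e-09), and the Wnt-inactivating enzyme Notum and the ligand Wnt11 differed by -2.41 ± 0.33 and -2.23 ± 0.17.

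Of 33 genes of BMP and TGF-beta signalling measured (of 40), 14 rose, 7 fell and 12 did not pass (median log2 0.16). Among ligands Bmp4 read 8.48, 8.93, 8.88 and 8.56 in AB, against 5.05, 6.02, 5.26 and 5.41 in DN and rose by 3.28 ± 0.31 (adjusted p = 4.61e-08), while Bmp7 (-2.20 ± 0.18) and Bmp2 (-1.12 ± 0.13) fell. The activin antagonist follistatin (Fst), the receptor Acvrl1 and the inhibitor Smad6 rose by 2.85 ± 0.19, 1.77 ± 0.18 and 1.16 ± 0.18. Of 17 FGF pathway genes measured (of 20), 5 rose, 6 fell and 6 did not pass (median log2 0.08). The ligands Fgf7 (2.26 ± 0.19) and Fgf18 (1.44 ± 0.14) and the feedback inhibitor Spry1 (2.21 ± 0.13) rose, and the ligands Fgf1 (-1.47 ± 0.18) and Fgf2 (-1.19 ± 0.14) and the decoy receptor Fgfrl1 (-1.21 ± 0.10) fell. Of 8 Notch pathway genes measured (of 17), 5 rose, 2 fell and 1 did not pass (median log2 0.77), with the receptor Notch3, the ligand Jag1 (0.95 ± 0.15) and the target Hey1 (0.95 ± 0.18) among the rises.

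Of 11 measured receptors for hormones that act on bone (of 17), 6 rose, 1 fell and 4 did not pass (median log2 0.52). Beside Lepr, the growth hormone receptor Ghr (1.16 ± 0.13) and the oestrogen receptor Esr1 (0.85 ± 0.13) rose. The parathyroid hormone receptor Pth1r was lower (-0.63 ± 0.11). The vitamin D receptor Vdr rose by 0.83 ± 0.29, a call lost under 5 of the other settings (adjusted p = 0.0544 to 0.0892). Of 13 regulators of osteoclasts measured (of 15), 7 rose, 4 fell and 2 did not pass (median log2 0.66). Csf1, a growth factor of osteoclast precursors, read 10.38, 10.29, 10.12 and 9.90 in AB, against 8.11, 8.61, 8.25 and 8.28 in DN (1.86 ± 0.11, adjusted p = 9.79e-11), and Wnt16 (2.40 ± 0.20) and Il34 (1.28 ± 0.19) rose, while Ptgs2 (-1.54 ± 0.23) and Il11 (-1.23 ± 0.19) fell beside osteoprotegerin. Tnfsf11, which encodes the osteoclast factor RANKL, was not in the filtered table. Of 19 cytokines, chemokines and receptors measured (of 28), 11 rose, 2 fell and 6 did not pass (median log2 0.88), and Il33 (1.86 ± 0.39), Il1rn (1.71 ± 0.23) and Ccl11 (1.32 ± 0.30) rose. Of 19 interferon and antigen presentation genes measured (of 26), 13 rose, 0 fell and 6 did not pass (median log2 0.57), among them the immunoproteasome subunit Psmb8 (1.80 ± 0.20), the class I molecule H2-K1 (1.63 ± 0.10) and the membrane protein Bst2 (1.42 ± 0.14).

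Markers of blood and endothelial cells, which the sort left out, were compared in the same way. Of the neutrophil list 16 of 20 were measured, and 1 rose, 0 fell and 15 did not pass (median log2 0.45). Every measured member had a higher mean in AB, by 0.05 to 0.88, and none passed apart from Mmp9. Mmp9, a gelatinase, rose by 0.84 ± 0.34 (adjusted p = 0.0484) with overlapping groups, and did not pass under 13 of the other settings (adjusted p = 0.0519 to 0.169). Of the monocyte and macrophage list 7 of 16 were measured, with a mean signal of 8.01 to 9.31 in AB and 7.15 to 8.52 in DN, and 1 rose, 0 fell and 6 did not pass (median log2 0.21). The member that rose was Vcam1, which the stromal list also holds. Adgre1, Cx3cr1 and C1qa to C1qc were not in the filtered table. Of the osteoclast list 6 of 12 were measured, and 4 rose, 1 fell and 1 did not pass (median log2 0.62). The protease Ctsk, shared with the periosteal list, and the phosphatase Acp5 rose by 1.21 ± 0.09 and 1.19 ± 0.27, and the transcription factor Nfatc1 fell by 1.74 ± 0.22.

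Of the B lineage list 2 of 13 were measured, and 1 rose, 0 fell and 1 did not pass (median log2 0.98). The gene that rose was Ebf1, also of the stromal list, while the immunoglobulin gene Ighm differed by 0.78 (95% interval -0.25 to 1.81). Another immunoglobulin gene, Igkc, read 7.57, 6.70, 7.54 and 11.17 in AB, against 7.47, 6.42, 9.70 and 7.99 in DN, with single high arrays in both groups. No gene of the T and NK lineage list of 12 was in the table. Of the erythroid and megakaryocyte list 6 of 16 were measured, and 0 rose, 2 fell and 4 did not pass (median log2 0.47), Tfrc and Gp1bb being the falls. Of the blood stem and progenitor list 6 of 13 were measured, and 3 rose, 0 fell and 3 did not pass (median log2 0.53). Those that rose were Cd34, which the fibroblast list holds, Mecom (0.93 ± 0.15) and Runx1 (0.65 ± 0.17). Kit, Flt3 and Gata2 were not in the table. Of the endothelial list 4 of 17 were measured, and 1 rose, 0 fell and 3 did not pass (median log2 0.40). Eng, a coreceptor of TGF-beta that stromal cells also carry, rose by 0.52 ± 0.13, and Cdh5, Kdr and Emcn were not in the table.

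The cells with a single receptor show where the AB profile stands. AB differed from A in 3010 genes (33% of those tested, 17.7% higher and 15.3% lower in AB) and from B in 138 (1.51%, of which 1.11% were higher and 0.405% lower in AB). These comparisons share the AB arrays with that against DN, so their values are given side by side. Same-numbered arrays of AB and A, and of AB and B, deviated together. A fit that holds the replicate number as a block gave 3317 genes for AB against A and 319 for AB against B. The differences of single genes below come from the fit without it. Without the block, the count against B was 78 without AB array 2, 194 without AB array 4 and 230 without array 4 of both AB and DN. Cxcl12 had a mean log2 signal of 12.54 ± 0.16 in AB, 9.83 ± 0.20 in A, 11.39 ± 0.17 in B, 8.89 ± 0.42 in SL and 8.29 ± 0.38 in DN. The AB level exceeded that of A by 2.71 ± 0.19 (adjusted p = 2.93e-09) and that of B by 1.15 ± 0.19 (adjusted p = 0.00211). Col10a1 was at 6.88 ± 2.27 in AB, 12.14 ± 0.45 in A, 8.63 ± 1.67 in B, 7.27 ± 0.98 in SL and 12.34 ± 0.40 in DN, and differed from A by -5.25 ± 0.85 (adjusted p = 6.76e-05) and from B by -1.75 ± 0.85 (adjusted p = 0.517). Cyp51 differed between AB and A by -1.65 ± 0.15 (adjusted p = 4.5e-08) and between AB and B by -0.28 ± 0.15 (adjusted p = 0.575).

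Among the named genes, some had higher levels in AB than in each of DN, A and B. Esm1 was at 7.78 ± 0.57 in AB, 4.01 ± 0.05 in A, 4.84 ± 0.41 in B, 4.00 ± 0.14 in SL and 3.85 ± 0.12 in DN. Serpina3g was at 8.31 ± 0.43 in AB, 4.37 ± 0.23 in A, 5.47 ± 0.39 in B, 4.22 ± 0.19 in SL and 4.16 ± 0.13 in DN. For both, every AB array lay above every array of the other 4 populations. Esm1 exceeded A by 3.78 ± 0.21 and B by 2.94 ± 0.21, Serpina3g exceeded A by 3.95 ± 0.19 and B by 2.85 ± 0.19. Cbln1, a secreted synapse organizer of the C1q family, was higher in AB than in DN by 2.88 ± 0.23, than in A by 2.99 ± 0.23 and than in B by 2.48 ± 0.23. The corresponding differences were 2.64, 2.88 and 2.32 for complement C6 and 2.26, 2.34 and 2.10 for Pappa. Adipoq exceeded A by 4.58 ± 0.29 and B by 2.50 ± 0.29.

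The interaction of the gates asks whether AB minus A differs from B minus DN. It passed for 60 genes (0.657% of those tested, 0.23% positive and 0.427% negative), a count that was 361 with the replicate number as a block and, without the block, 31 without AB array 2, 154 without AB array 4 and 309 without array 4 of both AB and DN. The genes named by size were Esm1 (2.79 ± 0.30, adjusted p = 6.23e-05), Serpina3g (2.64 ± 0.27, adjusted p = 6.23e-05), Cbln1 (2.59 ± 0.32, adjusted p = 0.0003), C6 (2.56 ± 0.35, adjusted p = 0.000825) and Pappa (2.18 ± 0.30, adjusted p = 0.000991), all positive. C1s1 had a negative interaction of -2.12 ± 0.42 (adjusted p = 0.0232), being at 8.96 ± 0.10 in AB, 7.58 ± 0.44 in A, 8.93 ± 0.26 in B, 9.56 ± 0.26 in SL and 5.43 ± 0.89 in DN. For that protease AB exceeded A by 1.38 ± 0.30 (adjusted p = 0.00129) and differed from B by 0.03 ± 0.30 (adjusted p = 0.999).

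**Figure D5:**
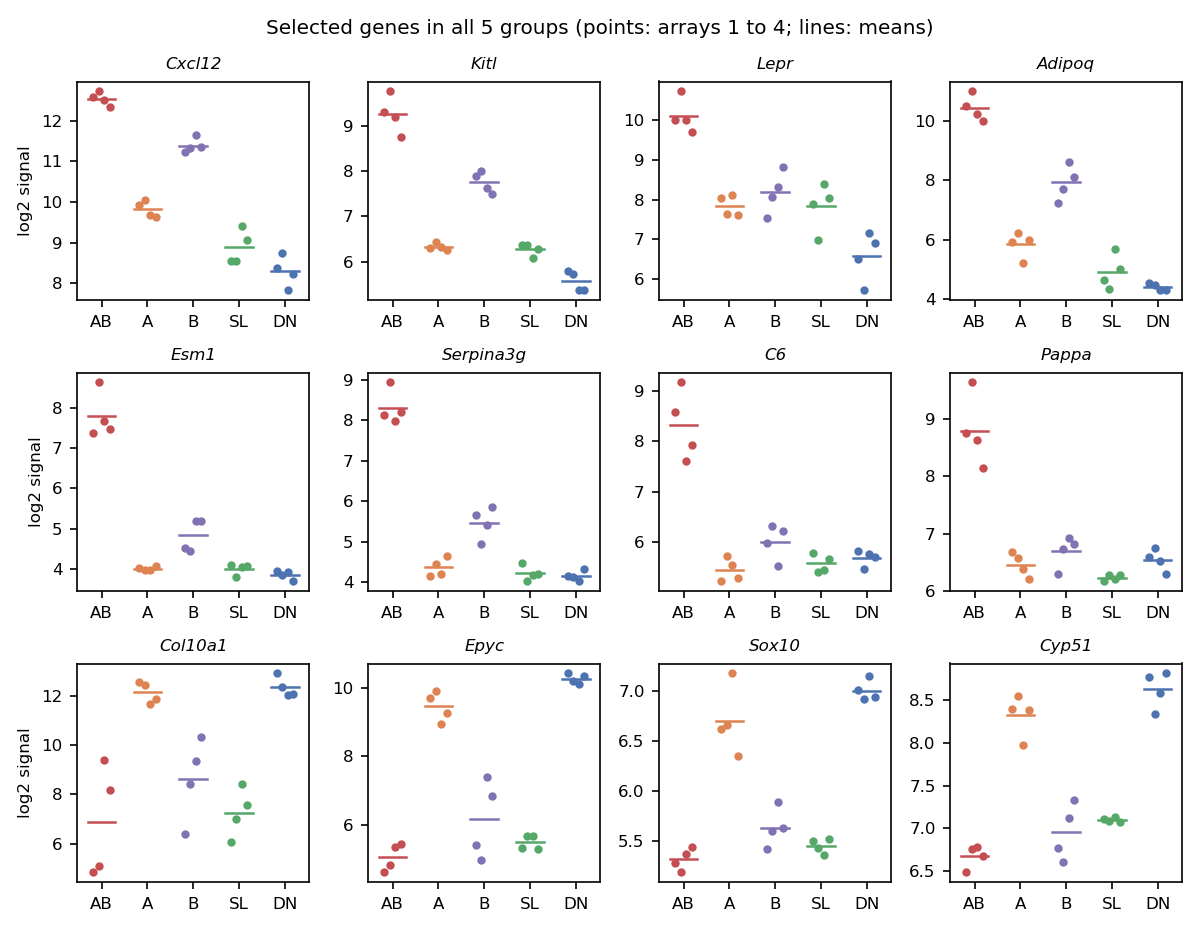
Log2 signal of 12 genes in AB, A, B, SL and DN, with 4 arrays per population as points and the mean as a line, on a separate scale per gene. Esm1, Serpina3g, C6 and Pappa are highest in AB, Cxcl12, Kitl and Adipoq are highest in AB and next highest in B, and Col10a1, Epyc, Sox10 and Cyp51 are highest in DN with A close to it.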

How the data were processed

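RNA of the sorted cells was labelled with biotin and hybridized to expression arrays, per the labels. The authors' deposited filtered table holds linear intensity for 12440 probe sets, and their deposited series table holds log2 values of the same arrays for 24539 probe sets, which differ by at most 0.0075 from log2 of the intensity. The normalization by the authors is not given in the sources used here. Comparison tables deposited by the authors give log2 differences, p-values and q-values for 5 other pairs of groups, and were used only for gene positions, whose build the file headers do not name.

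Log2 intensity was analysed here in R 4.3.3 with limma 3.58.1, in 1 model of all 20 arrays with a mean per group (15 residual degrees of freedom, moderated variance, median residual SD 0.185). P-values are two-sided and adjusted over the 9129 genes by the Benjamini-Hochberg method. 83 probe sets without a symbol were left out, and 2431 symbols had several. Array medians of AB and DN over the 12440 filtered probe sets lay between log2 8.00 and 8.09. The correlation across the tested genes between arrays of 1 group was r = 0.954 to 0.983, and the 4 arrays per group limit the precision. No array of AB or DN repeated another: any pair within a group differed by a median of at least 0.138. Differences, SE and p-values come from the fit without a replicate block, unless the block is named. Same-numbered arrays were counted as deviating together where residuals from the group means correlated above r = 0.1 in every pair. That held for AB with A (r = 0.185 to 0.398) and with B (r = 0.17 to 0.422), and failed for AB with DN in 1 pair of 4 (r = 0.0634 to 0.274). The script was tested on simulated data.

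The members and the 49 gene lists were chosen with earlier results of these data known, so no p adjusted over a list is given. Named genes are the sorted markers, the 12 largest differences in each direction whose arrays do not overlap (symbols of clones or predictions left out), up to 6 of each list by size, and up to 6 each by interaction and by excess over A and B. A few genes that this rule names are not reported here. Alpl, Ibsp, Sparc, Col1a1, Runx2, Sp7, Sox9, Acan, Col2a1, Ebf3, Foxc1, Sox10, Fos, Vegfa, Uchl5 and Igkc, and members named without a value, were added after their values were seen. Alternatives were other normalizations, filters, probe set rules, variance models, array weights, a replicate block and left-out arrays of AB or DN. Promoters are RefSeq sequences on GRCm38.p6.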

Additional observations from a re-analysis of the deposited data

Results flagged for a closer look

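Among 33 genes checked in AB and in DN, 66 groups of 4 arrays, 4 groups held an array whose gap to the nearest other array took up more of the range of the group than Dixon's critical value allows. Chance marks about 1 in 20 such groups. AB array 4 had the lowest Pdgfra, at 9.54 against 9.77 to 9.80 on the other AB arrays, and the lowest Pdgfrb, at 10.46 against 10.66 to 10.69. DN array 4 had a Pecam1 of 7.38, against 5.95 to 6.10 on the other DN arrays. Igfbp3 on AB array 2 was 8.85, against 8.46 to 8.51 on the other AB arrays. The calls of both receptors and of Igfbp3 between AB and DN did not rest on these arrays, since every AB array lay above every DN array.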

How the results depend on the processing

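The count of genes that differed between AB and DN lay between 3460 and 4550 under the alternatives that tested the same 9129 genes. It lay between 3791 and 4159 when 1 array of AB or DN was left out, with 2002 to 2188 genes higher and 1788 to 1982 lower. A stricter filter, an intensity of 200, left 6863 genes to test, of which 3453 passed. On all 24539 probe sets of the series table, each tested on its own, 7270 passed, 3514 higher and 3756 lower. With AB and DN arrays alone, 3735 passed. Quantile normalization and centring on array medians put the share of calls that were higher in AB at 49.4% and 49.2%, against 53.6%, and the median difference of all genes at 0.00. AB against A gave 2528 to 3086 genes with 1 array of AB or DN left out. AB against B gave 78 to 194 with 1 array of AB or DN left out, 230 without array 4 of AB and of DN, and 214 on all probe sets. The interaction gave 31 to 154 with 1 array of AB or DN left out and 309 without array 4 of AB and of DN. No array of A or B was left out in any setting, so how these counts depend on single A or B arrays was not tested.

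Residuals of same-numbered arrays of AB and DN correlated at r = 0.22, 0.06, 0.25 and 0.27, and 3 of the 4 AB arrays correlated best with their own number. That is a hint of shared replicates from the data that the labels do not state. With the replicate number as a block, 4550 genes passed for AB against DN, 4187 of them shared with the 4210, 319 for AB against B and 361 for the interaction. Of the 279 named genes, the block changed the call between AB and DN for 8, all of them not called without it, Alpl (adjusted p = 0.0334) and Ighm (adjusted p = 0.0315) among them. It also added calls for 3 named genes in AB against A, 22 in AB against B and 26 in the interaction.

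Of 279 named genes none changed direction past the threshold, and 13 lost their call under at least 1 alternative, those the text turns on being given beside their values. The cause of these changes was not tested. The series has 4 arrays per group, no detection calls, an unstated normalization and no record of which arrays share an animal or sort. Signals near the bottom of the scale limit how large a difference can appear.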

Other observations

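Within AB, 17 genes had an SD above 1 log2 unit over the 4 arrays, against 10 within DN, 3 within A, 33 within B and 7 within SL, while the median SD over genes was 0.157 in AB and 0.194 in DN. The genes of widest spread in AB were Uchl5, Col10a1, Igkc and Ly6a, with an SD of 2.70, 2.27, 1.99 and 1.39. Beside them stood Crb1, a polarity protein, at 7.40, 7.33, 4.93 and 7.73 in AB, against 7.48, 7.83, 7.48 and 7.43 in DN. F13a1, which encodes a subunit of coagulation factor XIII, read 6.51, 6.02, 7.32 and 8.50 in AB, against 10.69, 10.05, 9.89 and 10.02 in DN. Epx, the peroxidase of eosinophils, read 6.41, 8.71, 7.48 and 8.66 in AB, against 6.14, 6.03, 7.64 and 7.73 in DN. Crb1, F13a1 and Epx were chosen after their values were seen.

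For 10 genes, probe sets of the same gene were called in opposite directions between AB and DN. They were Ablim1, Ece2, Erc1, Hs2st1, Klc1, March7, Paip1, Ppp3cb, Rabgap1l and St6galnac2. None of them is a member of a list described here. They were chosen after their values were seen, and the direction of such a gene depends on the probe set that stands for it.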
